A study of Bos taurus with 24 samples.

Results

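The genes described here code for enzymes that remove reactive oxygen species and for the enzymes of glutathione metabolism. They were chosen by name: array features annotated with a single gene symbol of the superoxide dismutase, glutathione peroxidase, peroxiredoxin, thioredoxin, glutaredoxin or glutathione transferase families, together with CAT, GSR, GCLC, GCLM, HMOX1 and NQO1. The rule found 58 of 17418 features, which stand for 40 genes. Of these features, 54 had values on at least 20 of the 24 arrays and were tested, and each of the 40 genes kept at least 1 of them among 9026 genes tested. The 4 features left out belonged to CAT, GPX3, GPX6 and PRDX2, and SRXN1, which the rule also names, had 0 features.

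Total RNA came from the largest follicle of each of 16 heifers, with a diameter between 8 and 12 mm. Every array set 1 follicle in Cy5 against another in Cy3, and each follicle was on 3 arrays, with Cy5 on 2 of them for 8 follicles and on 1 for the other 8. The labels name the follicle and give no breed, age, cycle day, treatment or dominance status, so the comparison the design allows is between single follicles, which are called here by their label, such as J980 or 861. Each animal gave 1 follicle, so the SE of a level measures the error between arrays of the same RNA, with no spread between animals of a kind. The same holds for the p-values of the F test between follicles and of the test of single follicles. Permutation p-values of correlations take the 16 follicles as units.

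In an animal cell, superoxide dismutases turn superoxide into hydrogen peroxide, and catalase, the glutathione peroxidases and the peroxiredoxins reduce the peroxide further. Glutathione is made through glutamate cysteine ligase, whose reaction is the rate-limiting step. It is used by peroxidases, glutaredoxins and the transferases that couple it to reactive compounds, while thioredoxins return electrons to the peroxiredoxins. In the ovarian follicle, granulosa and theca cells make steroids with cytochrome P450 enzymes, which release reactive oxygen species as they work, and alpha-class glutathione transferases are known to be abundant in steroid-producing cells.

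Levels are log2 values relative to the mean of the 16 follicles for the same gene, so they can be set against each other between follicles and not between genes. The sign of every level rests on reading the deposited ratio as Cy5 over Cy3, which is likely and not stated. If the ratio runs the other way, every "higher" becomes "lower", while the test between follicles and all correlations stay as given. A ratio shows neither how abundant a transcript is nor whether it is present in all cells, and in RNA of a whole follicle fewer cells of a type and less RNA per cell cannot be told apart.

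Follicle J980 stood apart from the rest. Of all genes tested, 233 were below the mean there in the test of single follicles, and the other follicles had at most 28. Above the mean J980 had 51 genes, fewer than the 71 of C26. The mean level of 11 granulosa cell markers was -0.62 in J980 and between -0.32 and 0.35 in the other follicles, with 9 of the 11 below the follicle mean in J980. INHBA at -2.69 and FST at -2.05 weighed most in that value. AMH, CYP19A1 and HSD17B1 lay between -0.06 and -0.01, FSHR was at 0.09, and GATM was highest in J980 at 0.71. The list of stroma and smooth muscle also had its lowest mean level in J980, at -0.40 with 10 of 12 genes below the follicle mean, against -0.30 to 0.34 elsewhere. The lists of theca, endothelium, leukocytes and erythrocytes had mean levels of -0.02, 0.15, -0.01 and -0.06 in J980. Members of a list could go opposite ways there. Of 7 theca markers, 2 were below the follicle mean, CYP11A1 at -1.06 and HSD3B1 at -0.63, and both were lowest in J980. TCF21 stood at 0.58 and SCARB1 at 0.36. Of 8 endothelial markers, 3 were below the follicle mean, with ENG at -0.52 and CLDN5 at 1.44. The markers FOXL2, CYP17A1, STAR and LHCGR were not among the genes tested. Because J980 was unusual in so many genes, the main counts, the 13 genes that differed and their correlations are also given without that follicle and its 3 arrays. Of the 27 genes that did not pass the test between follicles, none passed without J980.

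The level of 13 of the 40 genes, or 32.5%, differed between follicles in limma's moderated F test at an adjusted p of 0.05, against 11.8% of all genes tested. They were SOD1, GPX1, GPX4, GPX8, PRDX1, PRDX3, GLRX5, GCLC, GSTA1, GSTA3, GSTA4, GSTM3 and NQO1. At an unadjusted p of 0.05 the counts were 22 members and 2390 of all genes, or 26.5%. By single features, 16 of 54 passed, or 29.6%, against 12.2% of all features, and 8 passed without J980, against 8.48%. Without J980, 7 of the 40 genes passed, or 17.5%, against 7.33% of all genes, and all 7 were among the 13: GPX1, GPX4, GLRX5, GCLC, GSTA1, GSTA3 and GSTA4. The count was 6 without the dye term and 4 without variance moderation, and it was 7 without the array of 26 against J980 and 8 without that of C26 against 33. The share of all genes called in these fits is not given here. The counts therefore do not show whether members lost more calls than other genes. The median SD of the follicle levels was 0.23 over the 40 genes and 0.17 over all genes, and the median SE of a member's level was 0.14.

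Much of this variation lay in J980. The lowest level was in J980 for 17 of the 40 genes, or 42.5%, where 15.5% of all genes tested were lowest in that follicle. Among the genes that passed the F test these shares were 10 of 13 members and 39.7% of all genes that passed. The median level in J980 was -0.13 over the members and 0.00 over all genes, and 27 of the 40 were below the follicle mean there. Not all members were low there: SOD2, TXN, GPX3, GSTT1, MGST3 and HMOX1 had their highest level in J980. None of these 6 passed the F test, while of all genes that passed 8.58% were highest in J980. At the other end stood follicle 861, where 11 of the 40 genes had their highest level, against 6.85% of all genes. Of the 13 members that passed, 6 were highest in 861, against 11.2% of all genes that passed.

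**Figure D1:**
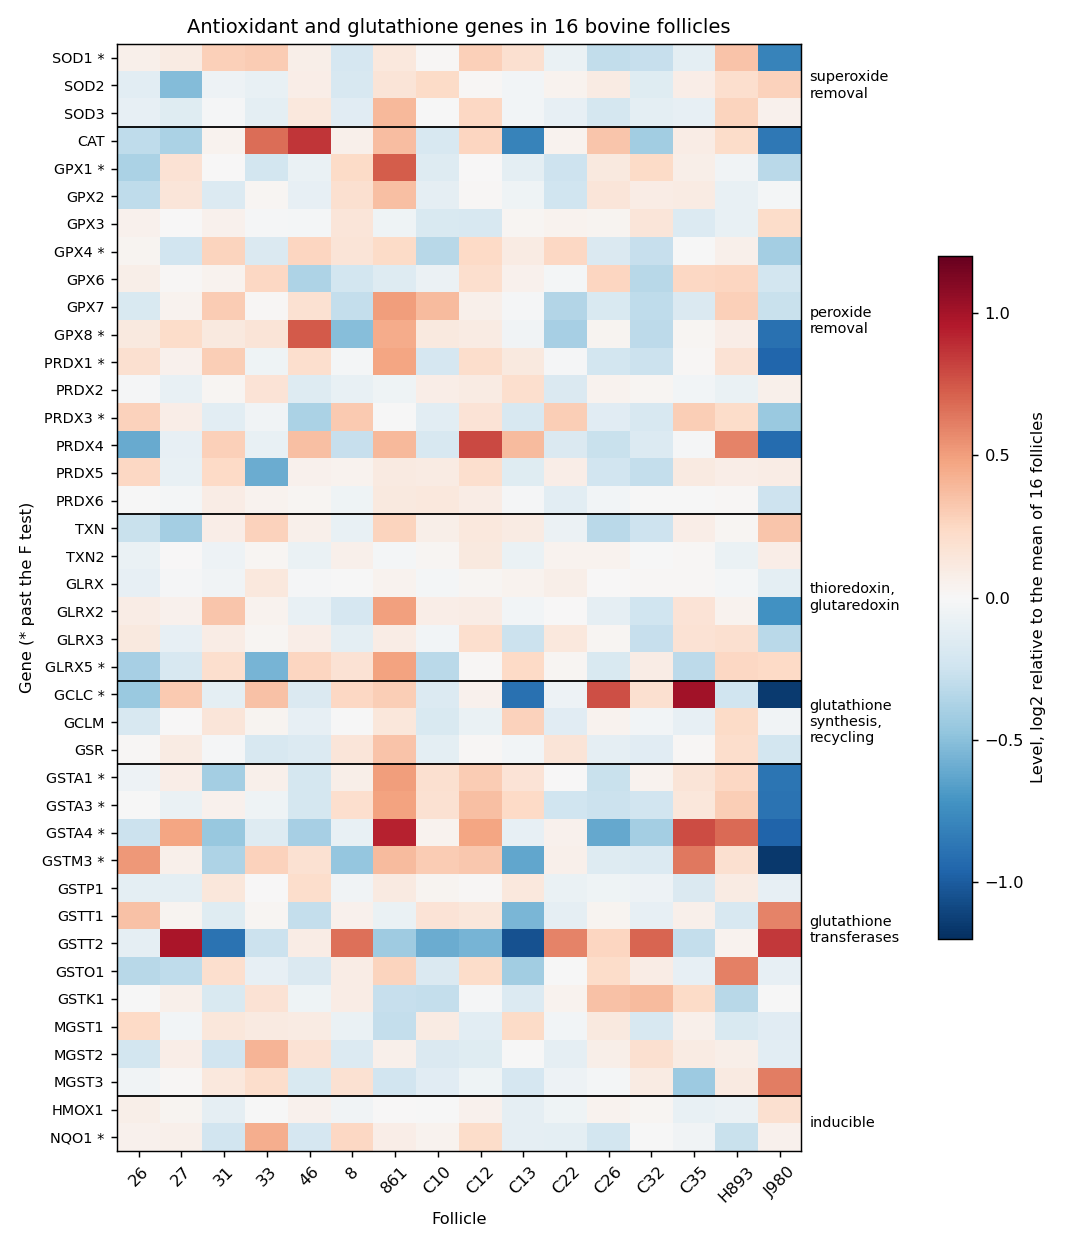
Log2 level of the 40 genes (lines of the plot, ordered by role) in the 16 follicles (columns), as colour around the mean of the follicles; an asterisk marks the 13 genes past the F test. The J980 column is below the mean for 27 of the 40 genes, and 861 holds the highest level of 11.

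A second test set each follicle's level against the mean of the follicles, with adjustment over all genes and follicles together. It called 7 of 640 combinations of member and follicle, where 0.591% of all combinations were called. In J980, 5 members were below the mean, against 2.58% of all genes: PRDX1, GSTA3, SOD1, GPX8 and GSTA1. In 861, GPX1 and GPX7 were above it, against 0.421% of all genes. The same test without J980 called GPX1 above the mean in 861 and GLRX5 below it in 33. In the fit of all follicles no member was called in the other 14, where 0.0222 to 0.787% of all genes were called in 1 direction. On simulated data the same test found 0 of 200 genes lowered by 0.5 in a single follicle and 65.5% of those lowered by 1. Single arrays weigh heavily in this count, which was 0 without the array of C10 against 26 or without that of C26 against 33, and 11 without the array of J980 against 8.

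Superoxide removal was represented by 3 genes, of which 1 passed. SOD1, the cytosolic copper and zinc superoxide dismutase, had levels from -0.80 ± 0.13 (SE) in J980 to 0.34 in H893, with a median of 0.06 and an adjusted p of 0.0243. The next lowest follicle was C26 at -0.30, and the follicles above it followed without a gap of that size. On the 3 arrays that held it, J980 was below its partner by 0.46 (against 8), 1.04 (against 26) and 0.75 (against 27). Without J980 the adjusted p was 0.397, and leaving out the array of C26 against 33, that of J980 against 27 or that of 26 against J980 also lost the call, at up to 0.0888. SOD2, the mitochondrial manganese enzyme, reached 0.28 in J980, its highest follicle, and -0.52 in 27, its lowest (adjusted p = 0.0744, and 0.0379 without the array of 26 against C35). SOD3, the extracellular form, lay between -0.21 in C26 and 0.39 in 861 (adjusted p = 0.172).

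Of the 14 genes of peroxide removal, 5 passed the F test: PRDX1, PRDX3, GPX1, GPX4 and GPX8. PRDX1, the abundant cytosolic peroxiredoxin, had the smallest p of all members (adjusted p = 0.00249). Its levels ran from -0.95 ± 0.11 in J980 to 0.47 ± 0.11 in 861, a 2.69-fold range, with C32 next lowest at -0.26. J980 was below 8 by 0.83, below 26 by 1.19 and below 27 by 1.09, with J980 in Cy5 against 8 and 27 and in Cy3 against 26. At the high end, 861 was above C10 by 0.61, above 46 by 0.34 and above H893 by 0.31. Without J980 the other 15 follicles did not differ past the threshold in PRDX1 (adjusted p = 0.0901).

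PRDX3, the mitochondrial peroxiredoxin, varied less, between -0.44 ± 0.11 in J980 and 0.31 in 8, with 46 at -0.38 (adjusted p = 0.0115, and 0.0543 without J980). Here J980 lay at the end of a continuous spread and was below its partners by 0.63, 0.78 and 0.62. PRDX4, the peroxiredoxin of the secretory pathway, had a larger spread on 22 arrays, from -0.92 ± 0.18 in J980 and -0.61 in 26 to 0.79 ± 0.16 in C12, with a median of -0.10. It missed the threshold (adjusted p = 0.0786) and passed it without the array of C13 against 46 (0.0264) or that of C12 against 46. PRDX2, PRDX5 and PRDX6 did not pass either, with adjusted p between 0.194 and 0.792. PRDX5, found in mitochondria and peroxisomes among other places, was lowest in 33 at -0.59 and not in J980, where it was 0.09.

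GPX1, the cytosolic glutathione peroxidase that depends on selenium, had a single follicle at its high end. Its level was 0.72 ± 0.11 in 861, next came C32 and 8 at 0.23, and the lowest were 26 at -0.38 ± 0.10 and J980 at -0.32 (adjusted p = 0.00457). Follicle 861 was above C10 by 0.85, above 46 by 0.92 and above H893 by 0.68. J980 was below 8 and 27 by 0.57 each and above 26 by 0.15. GPX1 passed in each of the 35 settings tried, including the fit without J980 (adjusted p = 0.0174).

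GPX4, which reduces lipid peroxides in membranes, had the narrowest range of the peroxidases that passed, 1.59-fold, between -0.41 ± 0.12 in J980 and 0.26 in 31. J980 was below 8 by 0.81, below 26 by 0.36 and below 27 by 0.05. C10 at -0.33, C32 at -0.28 and 27 at -0.23 lay close to J980, and its adjusted p of 0.0354 was 0.0488 without J980. Its call was lost in 19 of the 24 fits that left out 1 array, at up to 0.0812. GPX8, a peroxidase of the endoplasmic reticulum membrane, ran from -0.89 ± 0.16 in J980 and -0.52 in 8 to 0.74 ± 0.16 in 46 (adjusted p = 0.0213). J980 was level with 8 on their shared array, at a difference of 0.03, and was below 26 by 1.24 and below 27 by 1.15. Follicle 46 was above C13 by 0.85, above C12 by 0.40 and above 861 by 0.32. GPX8 was lost without J980 (0.124) and without the array of J980 against 27 or that of 26 against J980, at up to 0.0906.

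GPX7, the soluble relative of GPX8 in the endoplasmic reticulum, was highest in 861 at 0.50 ± 0.09, the level called in the test of single follicles, and missed the F test (adjusted p = 0.0510). Its p was 0.212 without the array of C10 against 26 and 0.0372 without that of C12 against 46, and it also passed without that of 33 against C12. GPX2, described mainly in the gut, followed nearly the same order as GPX1, from -0.31 in 26 to 0.36 in 861 (adjusted p = 0.172). GPX3, the secreted plasma form, and GPX6 stayed between -0.37 and 0.26, with adjusted p of 0.403 and 0.305. CAT, catalase of the peroxisome, was measured with a large error on 22 arrays and ran from -0.86 ± 0.41 in J980 and -0.80 ± 0.34 in C13 to 0.86 ± 0.35 in 46 (adjusted p = 0.216).

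**Figure D2:**
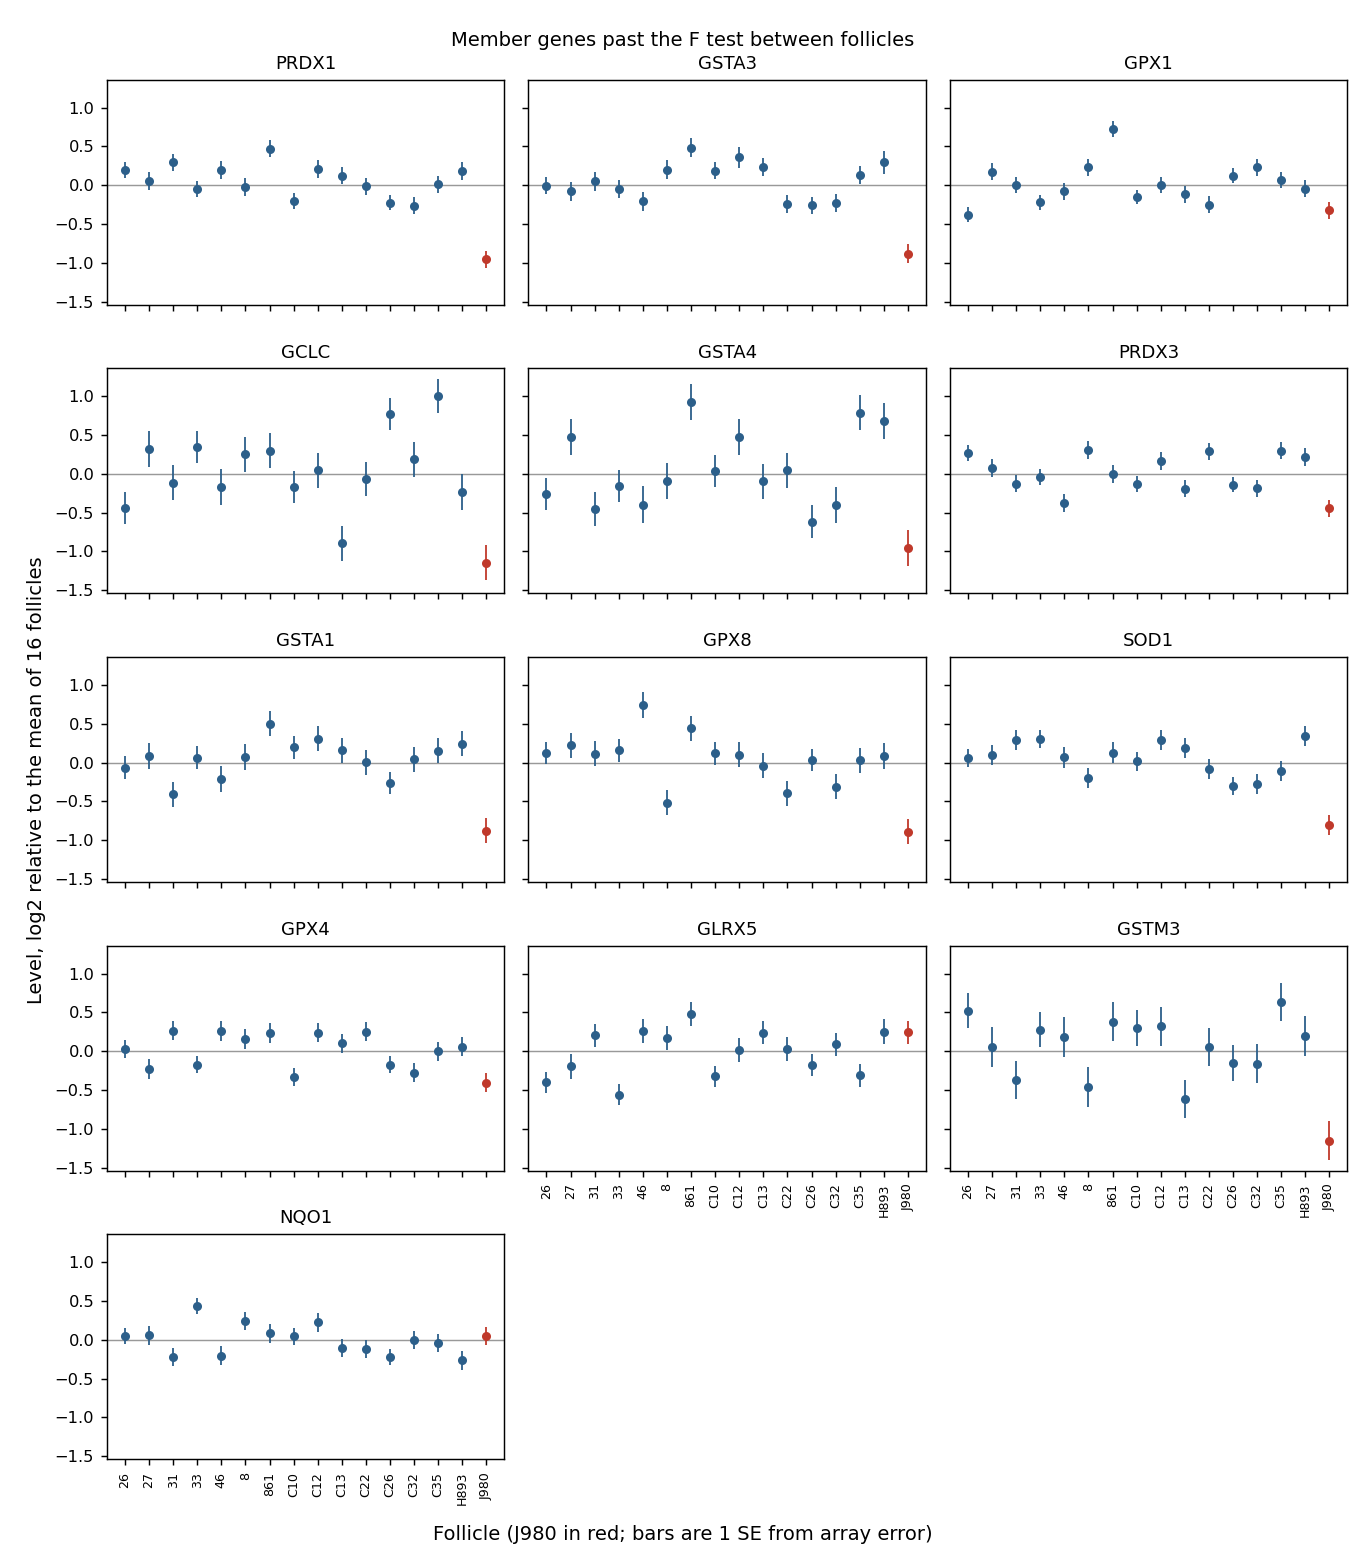
Log2 level (vertical axis) of each of the 13 genes past the F test in the 16 follicles (horizontal axis), with bars of 1 SE from array error. J980 is the lowest point for 10 genes; the exceptions are GPX1 (lowest in 26), GLRX5 (lowest in 33) and NQO1 (lowest in H893).

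Among the 6 thioredoxin and glutaredoxin genes, 1 passed. GLRX5, the mitochondrial glutaredoxin needed for iron-sulfur clusters, had its lowest levels in 33 at -0.56 ± 0.14 and 26 at -0.40, and its highest in 861 at 0.48 ± 0.15 (adjusted p = 0.0402). J980 was on the high side at 0.24, and the adjusted p without it was 0.0206. Follicle 33 was below C12 by 0.85, below C13 by 0.99 and below C26 by 0.14. The call was lost in 20 of the 24 fits that left out 1 array, and without the dye term it was far from the threshold (0.420). GLRX2, the other mitochondrial glutaredoxin, was lowest in J980 at -0.73 ± 0.16 and missed the threshold (adjusted p = 0.0613, and 0.0118 without the array of C12 against 46). GLRX3, TXN and TXN2 had adjusted p between 0.214 and 0.916. GLRX, the cytosolic glutaredoxin, had levels between -0.12 and 0.12, and TXN2, the mitochondrial thioredoxin, between -0.08 and 0.12, the 2 members of smallest SD. The TXN2 level averages 3 features that did not all go together (r from -0.49 to 0.77). They ran from -0.19 to 0.40, from -0.19 to 0.16 and from -0.20 to 0.15.

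Glutathione synthesis and recycling gave a contrast between the subunits of one enzyme. GCLC, the catalytic subunit of glutamate cysteine ligase, had a 4.45-fold range and the largest SD of levels among the 13 genes (0.55, adjusted p = 0.00722). It was highest in C35 at 1.01 ± 0.22 and C26 at 0.78, its median was -0.01, and it was lowest in J980 at -1.15 ± 0.23 and C13 at -0.90. C35 was above 27 by 1.10, above 26 by 1.28 and above C22 by 0.65, while J980 was below 8 by 0.99, below 26 by 0.75 and below 27 by 1.64. Both ends were thus seen on all 3 arrays of the follicle, and GCLC passed without J980 (adjusted p = 0.0321). GCLM, the modifier subunit, stayed between -0.19 in 26 and 0.27 in C13 (adjusted p = 0.657), and in C13 and C35 it stood at 0.27 and -0.09 where GCLC stood at -0.90 and 1.01. GSR, which reduces oxidised glutathione, ranged from -0.22 in J980 to 0.34 in 861 (adjusted p = 0.147). The difference between GCLC and GCLM was not tested.

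The transferases held 4 of the 13 genes, out of 12 measured, and 3 of them were of the alpha class. GSTA3, known in human as a ketosteroid isomerase of steroid synthesis, ran from -0.88 ± 0.12 in J980 to 0.48 ± 0.12 in 861, with C26 next lowest at -0.26 (adjusted p = 0.00455). J980 was below its partners by 1.01, 0.92 and 0.92, and GSTA3 passed in each of the 34 settings in which it was tested, the fit without J980 among them (0.0275). GSTA1, an alpha transferase long known from steroid-producing tissues, had the same ends at -0.88 ± 0.16 and 0.50 ± 0.16 (adjusted p = 0.0159, and 0.0286 without J980). Here J980 was below 8 and 26 by 0.78 each and below 27 by 1.32.

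GSTA4, which conjugates products of lipid peroxidation, spread more widely, 3.70-fold, and had several follicles at each end (adjusted p = 0.00979, and 0.0305 without J980). Its highest levels were 0.93 ± 0.23 in 861, 0.79 in C35 and 0.68 in H893, and its lowest were -0.96 ± 0.23 in J980 and -0.61 in C26. J980 was below 8 by 0.44, below 26 by 1.05 and below 27 by 1.37. The arrays of 861 were less even, with 861 above 46 by 1.49, above C10 by 0.96 and below H893 by 0.12.

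GSTM3, of the mu class, was lowest in J980 at -1.15 ± 0.25 and in C13 at -0.62, and highest in C35 at 0.63 and 26 at 0.52 (adjusted p = 0.0437, and 0.0765 without J980). J980 was below 26 by 1.89 and below 27 by 1.54 but close to 8, by 0.11, and the call was lost in 19 of the 24 fits without 1 array, at up to 0.195. The other 8 transferases did not pass. MGST3 and GSTT1 were highest in J980, at 0.61 and 0.59 (adjusted p of 0.105 and 0.238), and GSTO1 was highest in H893 at 0.60 (0.0862). GSTT2 had the largest SD of levels of any member (0.63), from -1.04 ± 0.41 in C13 to 0.98 ± 0.43 in 27, with a median of -0.03, and did not pass (adjusted p = 0.459). Its arrays disagreed, with J980 below 8 by 0.85, below 27 by 0.78 and above 26 by 2.02, and its adjusted p was 0.0213 without the array of C22 against C35, and it also passed without that of 26 against C35. GSTP1, GSTK1, MGST1 and MGST2 had adjusted p between 0.237 and 0.796.

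Of the 2 enzymes known for their induction under stress, NQO1 passed and HMOX1 did not. NQO1, a quinone reductase, was highest in 33 at 0.44 ± 0.11 and lowest in H893 at -0.27 ± 0.12 and 31 at -0.23 (adjusted p = 0.0449). Follicle 33 was above C26 by 0.64, above C13 by 0.48 and above C12 by 0.27. In J980 NQO1 was at 0.05. The call was lost without J980 (0.0636) and in 20 of the 24 fits without 1 array, at up to 0.109. NQO1 had 1 feature, which missed the threshold in the F test of all features (adjusted p = 0.0520). HMOX1, haem oxygenase, stayed between -0.11 in 31 and 0.19 in J980 (adjusted p = 0.956). This level averages 2 features (r = -0.07), which ran from -0.12 to 0.20 and from -0.36 to 0.37.

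**Figure D3:**
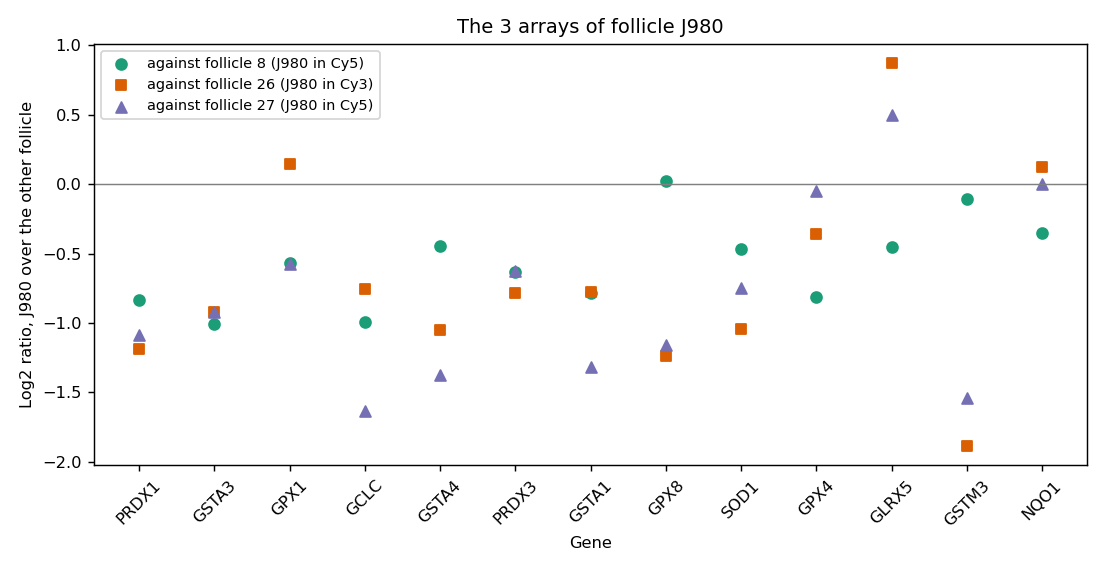
Log2 difference of J980 minus its partner (vertical axis) on each of its 3 arrays, against 8, 26 and 27, for the 13 genes past the F test (horizontal axis). PRDX1, GSTA3, GCLC, GSTA4, PRDX3, GSTA1, SOD1, GPX4 and GSTM3 are below 0 on all 3 arrays, and GPX8, GPX1, GLRX5 and NQO1 are not.

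Several genes were measured by more than 1 feature, which shows where the value of a gene hides a disagreement. Here and for GSTM3 below, r without J980 was taken from levels fitted on all arrays, with that follicle left out. The adjusted p without J980 came from the fit without its 3 arrays. All 3 features of PRDX1 passed by themselves, with correlations between follicle levels of 0.61 to 0.87. Without J980 none of the 3 passed (adjusted p of 0.0813, 0.127 and 0.184), and the correlations were 0.33 to 0.63. Of the features of GPX4, 1 passed (adjusted p = 0.0169, and 0.0504 without J980) and 1 did not (0.121), with r = 0.64, and 0.60 without J980. GSTA1 had 2 features that went together (r = 0.85) and passed with adjusted p of 4.44e-05 and 0.00137, both highest in 861, at 0.89 and 0.88, and lowest in J980, at -1.02 and -1.62. Without J980 both passed (4.06e-04 and 0.00813), with r = 0.77. The other feature named GSTA1 ran differently: J980 was at 0.01, the highest follicle was C10 at 0.65, and its correlation with the pair was -0.40 and -0.26 (adjusted p = 0.215). The average over features therefore understates the range that the concordant pair measured. The better of that pair correlated with GSTA3 at r = 0.87 and with GSTA4 at r = 0.80. Alpha transferases are close in sequence, and whether these features tell them apart was not tested.

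GSTM3 was more divided. Both of its features passed (adjusted p = 3.22e-04 and 0.0482, and 6.86e-04 and 0.0568 without J980), yet their levels hardly correlated (r = 0.19, and -0.02 without J980). The feature of smaller p was highest in 861 at 0.68 ± 0.12, lowest in C26 at -0.66 ± 0.11, and at -0.51 in J980. The other was at -1.80 ± 0.45 in J980 and 0.99 ± 0.46 in 46, a follicle where the former stood at -0.62. The former followed GSTA4 (r = 0.78), and the latter accounts for most of the low average of GSTM3 in J980. Among genes that did not pass, features of TXN2, PRDX6 and HMOX1 had median correlations of -0.19, 0.00 and -0.07.

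**Figure D4:**
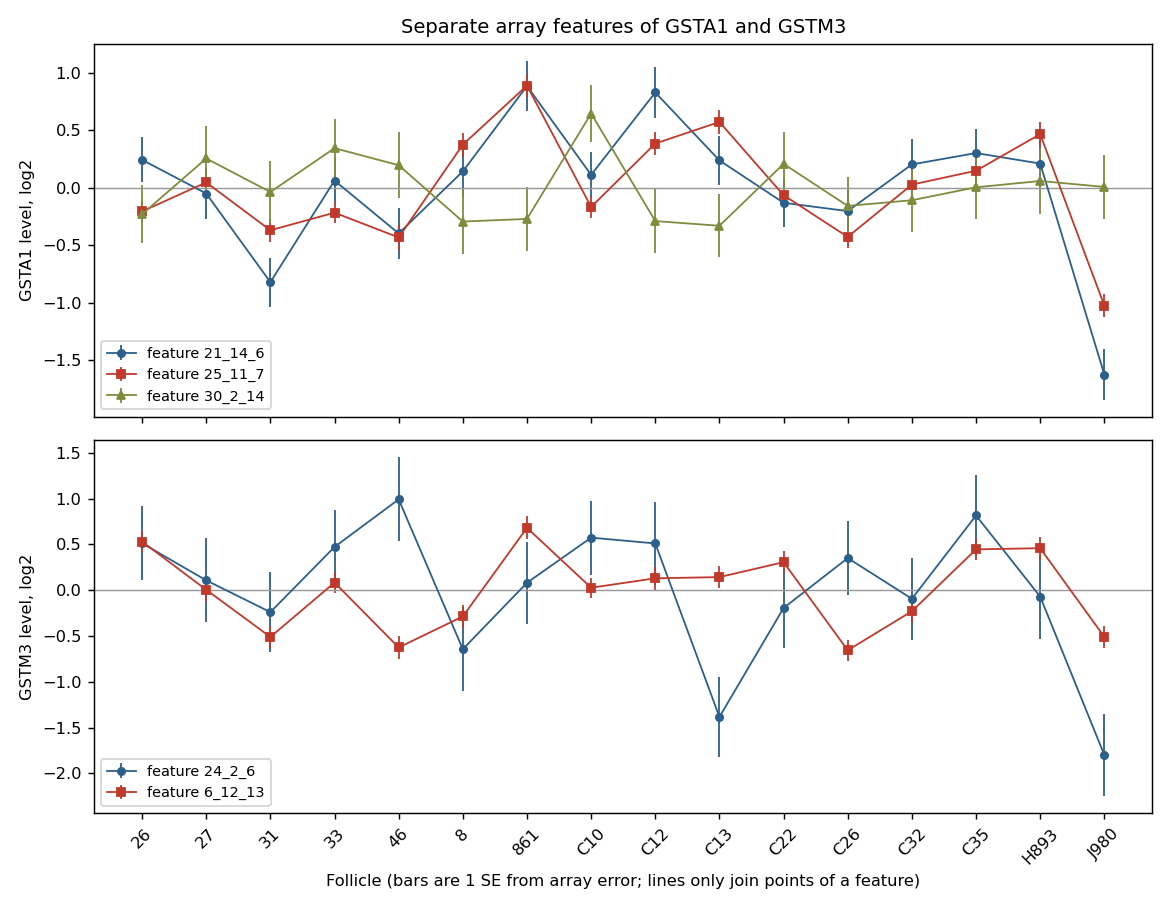
Log2 levels (vertical axis, bars of 1 SE) in the 16 follicles (horizontal axis) for each feature of GSTA1 and GSTM3, with 1 line per feature that only joins its points. In J980 the GSTA1 features are at -1.62, -1.02 and 0.01, and in follicle 46 the GSTM3 features are at -0.62 and 0.99.

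Pairs of the 13 genes were compared over the 16 follicles with two-sided permutation tests of 100000 resamples on both Pearson's r and Spearman's rho, adjusted over 156 relations: 78 pairs and 78 relations with the 6 marker lists. Of the pairs, 8 passed by r, all positive, and 3 of these passed by rho as well. Levels share array error through the arrays that join follicles, so these p-values may be too small. The 3 pairs were GSTA1 with GSTA4 (r = 0.84, permutation p = 3e-05, adjusted p = 0.0026; rho = 0.87, adjusted p = 0.00468), GSTA1 with GSTA3 (r = 0.87, permutation p = 5e-05, adjusted p = 0.0026; rho = 0.84, adjusted p = 0.00702) and PRDX1 with GPX4 (r = 0.78, permutation p = 4e-05, adjusted p = 0.0026; rho = 0.77, adjusted p = 0.0369).

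The 2 follicles farthest from the median of the gene on the x axis (GSTA4, GSTA3 or PRDX1) were also left out. For GSTA1 with GSTA4 these were 861 and C35, so J980 stayed in, and r was 0.83. For the other 2 pairs they were J980 and 861. There r was 0.63 for GSTA1 with GSTA3 and 0.76 for PRDX1 with GPX4. In the fit without J980, PRDX1 with GPX4 was the pair that passed, with r = 0.89 (permutation adjusted p = 0.00156), and the alpha transferase pairs had r of 0.76 and 0.75 (adjusted p of 0.0681 each). PRDX1 and GPX4, as averages over their features, were thus correlated over the other 15 follicles, between which PRDX1 by itself did not pass the F test. Features were compared in the levels fitted on all arrays, with J980 then left out. The GPX4 feature that failed the F test had r of 0.45 to 0.76 with the PRDX1 features. For the GPX4 feature that passed in all follicles, r was 0.34 to 0.47. With 1 feature per gene this pair did not pass. The other 5 pairs did not pass by rho. In the fit without J980, r went from 0.81 to 0.50 for PRDX1 with GSTA3, from 0.74 to 0.41 for PRDX1 with GPX8 and from 0.76 to 0.36 for GSTA3 with SOD1. It went from 0.85 to 0.57 for PRDX1 with SOD1 and from 0.76 to 0.68 for GSTA3 with GSTA4. Leaving out J980 and 861, the follicles farthest from the median, gave 0.40, 0.42, 0.52, 0.72 and 0.58 in the same order. Over all 78 pairs, 67 or 85.9% were positive, with a median r of 0.39, beside 55.6% and 0.06 over all pairs of the 1061 genes past the F test. Without J980, 57 or 73.1% were positive, with a median of 0.21, beside 52.3% and 0.02. The 13 genes were chosen by the F test on these follicles and 10 of them are lowest in J980, so these shares are a description.

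**Figure D5:**
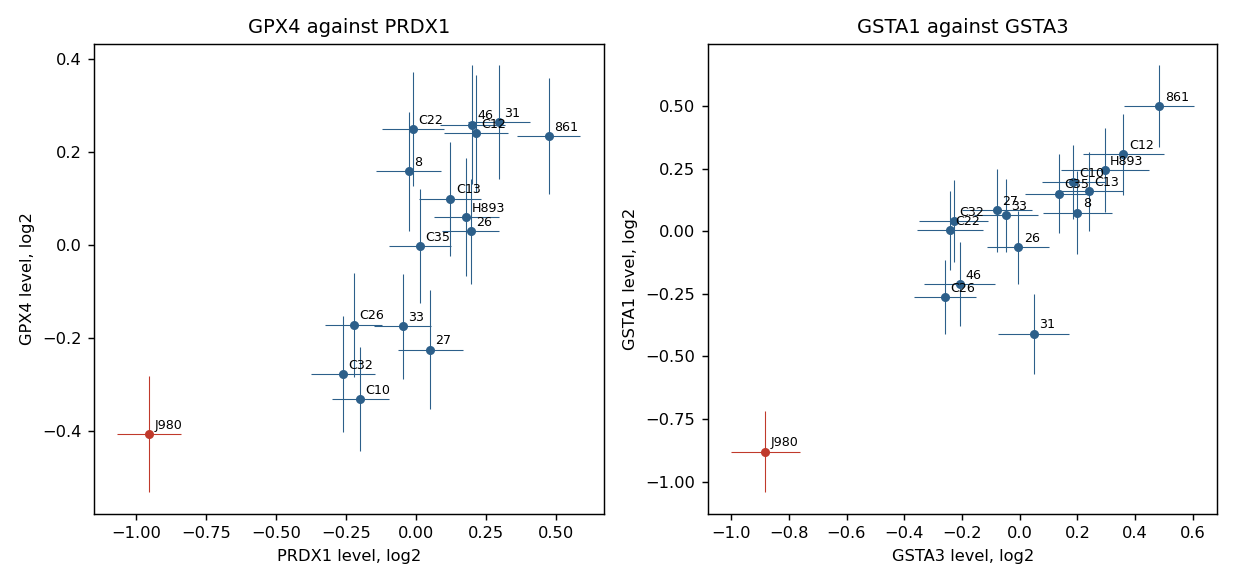
Follicle levels (log2) of GPX4 (vertical axis) against PRDX1 (horizontal axis) and of GSTA1 against GSTA3, 1 point per follicle with bars of 1 SE. J980 lies at the low end of both plots. In the fit without its 3 arrays r is 0.89 for PRDX1 with GPX4 and 0.75 for GSTA1 with GSTA3.

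In the fit as described, by r or rho, none of the 78 relations between a member and the mean level of a marker list passed. The nearest were GPX4 with the endothelial markers (r = -0.69, permutation adjusted p = 0.0624), GLRX5 with the stromal markers (r = -0.67), GPX1 with the granulosa markers (r = 0.69) and PRDX3 with the theca markers (r = 0.65), each of the last 3 at an adjusted p of 0.0626. PRDX3 with the theca markers passed by rho without the dye term (rho = 0.78, permutation adjusted p = 0.0261), and GSTM3 with the stromal markers passed by r with 1 feature per gene (r = 0.78, adjusted p = 0.0195). For the 5 members called below the mean in J980, the low mean levels of the granulosa and stromal lists stand beside the result. The part of these lists in it was not tested.

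The genes whose pattern was most like those of the 3 members of smallest p were looked up among all genes tested, by r over the 16 follicles, as a description. Values without J980 leave that follicle out of the same levels, which were fitted on all arrays. For PRDX1 they were NEDD8 (0.95), MTFR1 (0.93), LMAN2 (0.93), PSMB6 (0.93) and PFDN1 (0.92), and without J980 these values were between 0.78 and 0.87. For GSTA3 they were GSTA1 (0.87), SEMA6D (0.86), ATP5PD (0.86), MRPL34 (0.86) and MRPL13 (0.85), and between 0.67 and 0.83 without J980. For GPX1 they were GNB2 (0.91), GPX2 (0.85), TMEM120A (0.79), POR (0.78) and THBS3 (0.77), and GPX2 stood at 0.89 without J980. Of these genes, MTFR1, SEMA6D, ATP5PD, MRPL13, GNB2, GPX2, POR and THBS3 did not themselves pass the F test.

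Other genes of the same chemistry were looked up from 4 lists. Of 87 genes listed for thioredoxin relatives, glutathione turnover, NADPH supply and the NRF2, haem and iron genes, 59 were measured and 8 passed the F test, or 13.6%, beside the 11.8% of all genes. Among 18 thioredoxin relatives, TXNDC9, a thioredoxin domain protein, and SELENOP, the secreted selenium carrier, passed (adjusted p of 0.0115 and 0.0147), with SELENOP at 0.97 in C35 and -0.70 in 46. Among 15 genes of glutathione turnover, GLO1, which uses glutathione to detoxify methylglyoxal, and SLC3A2, the heavy chain of amino acid exchangers that include the cystine importer, passed (0.0151 and 0.0213). Among 10 genes of NADPH supply, ME2, the mitochondrial malic enzyme, passed (0.00471) and was highest in 861 at 0.66 and lowest in J980 at -0.55. Of 16 genes of NRF2 regulation, haem and iron, MAFF, a small MAF transcription factor, passed with its highest level in C22 at 0.71 (0.00206), EPHX1, the microsomal epoxide hydrolase, with 0.70 in C26 and -0.68 in H893 (0.0156), and CCS, the copper chaperone of SOD1, with an adjusted p of 0.0447. Without J980, 9 of the 59 passed, or 15.3%, beside 7.33% of all genes. In that fit CCS was lost (F test adjusted p = 0.117), and TXNIP (0.0414) and PTGES (0.0387) joined the others. Calls lost in single fits without 1 array were those of TXNDC9, SELENOP and EPHX1 in 1 fit each, SLC3A2 in 5 and CCS in 20. Without the dye term SELENOP, EPHX1, SLC3A2 and CCS were lost. Without variance moderation SELENOP, EPHX1 and CCS were lost, and with 1 feature per gene EPHX1 and SLC3A2.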

How the data were processed

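The authors deposited 1 log ratio per feature and array, taken here as log2. Base 10 is excluded for 16-bit scans by the largest absolute value of 6.32, while natural logs are not, with background and dye correction not given in the sources used here. Per the labels' protocols, 5 µg of total RNA per follicle was labelled with dendrimer reagents and scanned images were measured in GenePix Pro 4.0.1.12. Arrays had values for 16094 to 17028 features, and columns of other samples numbered 0. Deposited medians lay between -0.014 and 0.0064 and SDs between 0.28 and 0.54.

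The direction was taken as Cy5 over Cy3, since Cy5 is channel 1 and the titles name its follicle first. Names came from the platform annotation of 2007: 13605 features had 1 symbol, 829 several and 2984 none. Of the first, 13575 were matched to the RefSeq table of ARS-UCD2.0, with 0 symbols changed. Neither coordinates nor sequences are given.

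Array medians were set to 0. Where at least 20 arrays held a value, features were kept, averaged by symbol per array and fitted with follicle effects and a common dye term (8 residual degrees of freedom) in limma 3.58.1 under R 4.3.3. Benjamini-Hochberg adjustment ran over all genes or features, and over all genes and follicles for single levels, at 0.05. On simulated data for 9026 genes the F test recovered 42.5% of 200 genes whose levels had an SD of 0.25 and made 0 false calls. For an SD of 0.5 it recovered 91% and made 8 false calls. Precision is limited by the number of arrays. All members may be named, with full values for those past the F test and the 3 others of largest SD; from the other lists, genes past the test were named. The members, gene lists and marker lists were chosen with earlier results of these data known.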

Additional observations from a re-analysis of the deposited data

How the results depend on the processing

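The count of 13 genes was 6 without the dye term, 4 without variance moderation and 7 without J980; leaving out 1 array each gave 7 (without 26 against J980) to 13, and 8 without C26 against 33. The other 7 settings gave 12 to 14. GPX1, GSTA3, PRDX1 and PRDX3 passed without moderation, and GCLC and GSTA4 joined them without the dye term. The count of 16 features became 10 without moderation, 8 without J980 and 12 to 19 without 1 array. The 7 single-follicle calls became 3 without the dye term, 2 without J980 and 0 to 11 without 1 array. In 13 of those 24 fits the count moved by over 1.5 times: it was 0 without C10 against 26 or C26 against 33, 1 without 26 against J980, 2 without 861 against C10, 3 without C32 against C26, and 11 without J980 against 8. It was 4 without C12 against H893, H893 against 31, C22 against C26, 27 against C32, 33 against C13, 46 against 861 or 31 against C10. The 8 pairs became 3 by rho, 4 with arrays scaled to 1 spread and 1 without J980; with 1 feature per gene 7 passed by r and 0 by rho. By rho 2 passed in the values as deposited or with scaled arrays. Of the 78 relations with marker lists, 1 passed without the dye term (rho) and 1 with 1 feature per gene (r). The cause of these changes was not tested, beyond the fewer arrays in some fits. Apart from the F tests without J980, the shares of all genes or features called in these settings are not given here. The changes in count therefore cannot be read as particular to the members. GPX4, GSTM3, GLRX5 and NQO1 passed in 14, 13, 12 and 11 of 35 settings. Averaging all features of a gene was added after seeing the data and gave 13 genes and 7 calls. No paired analysis was possible because replicate numbers only name arrays in accession order. With 3 arrays per follicle a member's level has a median SE of 0.14, so differences of that size were not detectable. Larger ones could be missed too. In the simulation, the test of single follicles found 0 of 200 genes lowered by 0.5 and 65.5% of those lowered by 1. Signal over background is not known here.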

Other observations

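Features annotated with several symbols were left out of the members, and 4 of them include a member's symbol. The feature shared by MGST2 and IGHG1 had a 13.8-fold range between 2.22 in C26 and -1.56 in 31 (limma adjusted p = 0.0252), and its levels correlated with those of IGHG1 at r = 0.84 and with those of MGST2 at 0.38. The feature shared by YLPM1 and GPX3 reached 0.86 in J980 and was lowest in 26 at -0.65 (adjusted p = 0.00339). The feature shared by C10H14orf93 and GPX1 was highest in 861 at 0.47, as GPX1 was, and correlated with it at r = 0.71 (adjusted p = 0.0628). The feature shared by MTAP and PRDX3 had an adjusted p of 0.210 and its highest level in 31.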
